A study of Mus musculus with 4 samples.

Results

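The genes described here encode tripartite motif (TRIM) proteins and components of PML nuclear bodies. They are the 6 TRIM genes Trim14, Trim21, Trim26, Trim30a, Trim30d and Trim34a and the 4 nuclear body genes Pml, Sp100, Sp110 and Daxx. They were chosen by name, with earlier results of these data known. Of these 10 genes, 9 had an array row that names them alone, out of 19752 genes with such a row, and each of the 9 had exactly 1. Sp110 had none and is described through rows that also name other genes.

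RNA came from CD4+ T cells that had been purified by negative selection, in which other cell types are removed, from spleens of 6 week old male mice of the inbred strain C57BL/6. All cells on the arrays had been activated with beads carrying antibodies to CD3 and CD28, for 48 h per the design text. Of the 4 Affymetrix whole-transcript arrays, 2 held baseline cells without interferon alpha (IFNa), 1 held cells given IFNa at 100 U/ml for 2 h, and 1 held cells given the same dose for 8 h. Whether the baseline pair stems from 2 mice or cultures is not stated, so p-values measure a spread that may be technical. Each IFNa time has 1 array, whose spread was taken to equal that of the baseline pair. For both IFNa samples the preparation label reads IFNa with or without JAK inhibitors, which block interferon signalling, and no other label settles whether an inhibitor was there. Untreated cells matched in time were not analysed here, and the effect of IFNa cannot be told apart from that of longer culture. In bulk RNA, fewer cells expressing a gene and less of its RNA per cell cannot be told apart.

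TRIM proteins share a coiled coil and zinc-binding B-box domains, and most carry a RING domain that attaches ubiquitin to other proteins. Many act in innate immunity, where they restrict viruses directly or tune the signalling that leads to interferon. PML nuclear bodies are protein assemblies in the nucleus, built on the SUMO-modified protein Pml, that hold Sp100, Daxx and other partners and can silence incoming viral genomes. Pml is itself a TRIM family protein, and genes for several nuclear body components are known to be induced by interferon.

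The deposited values are linear RMA intensities, and differences are given on the log2 scale, where 1 is a 2-fold difference. The median intensity was 195 and 183 on the baseline arrays, 176 on the 2 h array and 199 on the 8 h array, and the small number of arrays limits the precision. Over the 10699 genes tested, the median log2 difference from baseline was 0.055 for the 2 h array and -0.16 for the 8 h array, while quantile normalization gave -0.01 and -0.00 and centring the arrays on their medians gave 0.15 and -0.24. All 9 genes lay above the median of all rows on every array, so none was removed as dim. Of 9 listed CD4+ T cell markers, 7 had a row of their own, and all 7 were above the array's median on all 4 arrays. Of the 8 monocyte, macrophage and dendritic cell markers 1 (Lyz2) was above it on each array, with a summed intensity of 1108 and 897 on the baseline arrays, 720 on the 2 h array and 1006 on the 8 h array. All 4 measured B cell markers were above it too, summing to 2165 and 2185 on the baseline arrays, 2099 on the 2 h array and 2776 on the 8 h array. Of the 2 CD8 T cell markers, Cd8b1 was above it on all 4 arrays and Cd8a on baseline replicate 1 and the 8 h array. Cd8b1 had 880 and 822 on the baseline arrays, 762 on the 2 h array and 938 on the 8 h array. Of the 3 NK cell markers 1 (Eomes) was above it on each array, and none of the measured neutrophil and erythroid markers was. The part of other cells in the results was not tested.

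The comparisons of the 2 h array and of the 8 h array with baseline ask which of these genes differ early and late in the response. Both IFNa arrays lay above both baseline arrays for all 9 genes. Over all tested genes this held for 7.38%, with 44.5% above both baseline arrays at 2 h and 24.4% at 8 h. Of the 9 genes, 3 rose at 2 h, namely Trim30a, Trim30d and Daxx, and 5 rose at 8 h, namely Trim30a, Trim30d, Trim34a, Pml and Sp100 (limma, adjusted p under 0.05 over all tested genes). None of the 9 fell. Among all tested genes 1.09% were called higher and 0.00935% lower at 2 h, and 0.654% higher and 3.35% lower at 8 h. The 9 genes were chosen with earlier results known, so setting them beside these shares is a description and not a test. The calls over all tested genes are given next as counts. They were 117 genes higher and 1 lower at 2 h and 70 higher and 358 lower at 8 h. After quantile normalization they were 332 and 109 at 2 h and 663 and 900 at 8 h, when 6 of the 9 genes rose at 2 h and 8 at 8 h. For the mean of both IFNa arrays, 4 genes rose (Trim30a, Trim30d, Trim34a and Daxx), where 0.645% of all tested genes were called higher and 0.262% lower, and the same 4 differed by at least 2-fold, against 0.636% of all tested genes.

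**Figure D1:**
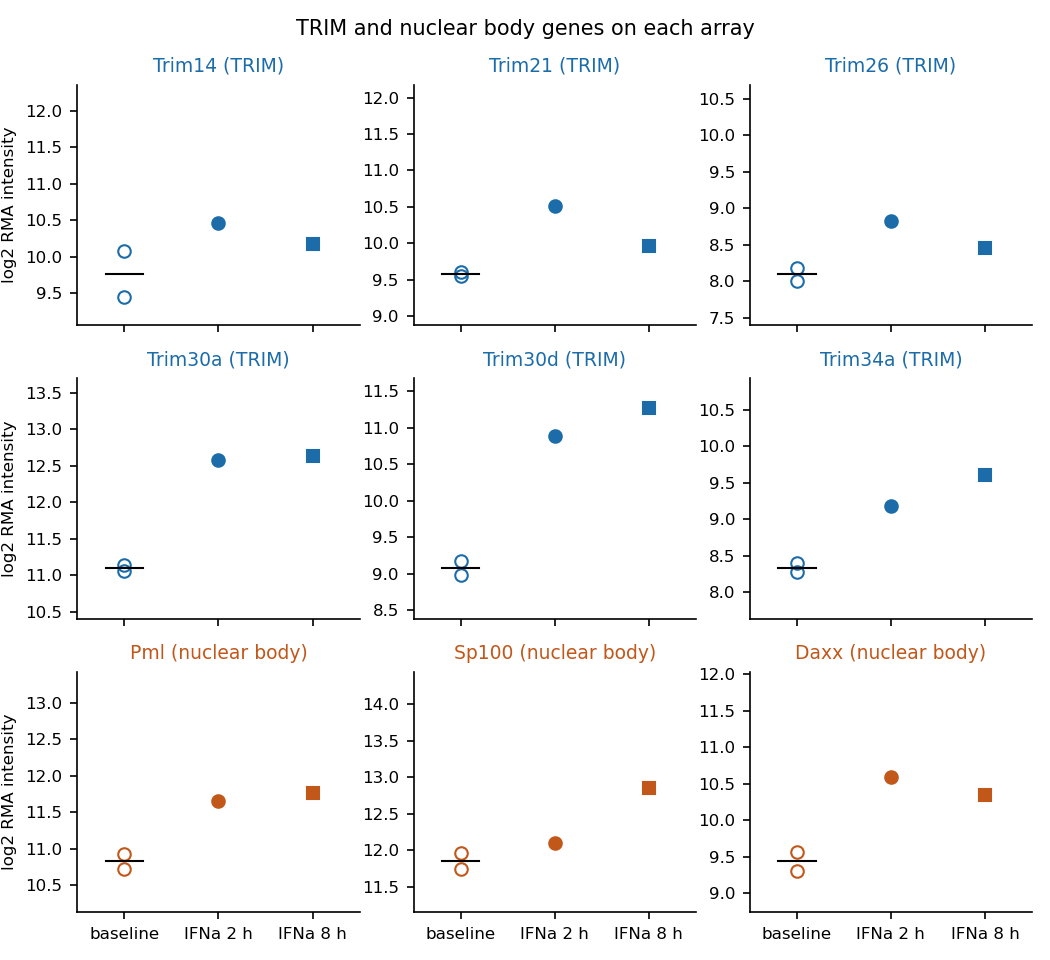
Log2 RMA intensity (vertical axes, each spanning the same range around its gene's baseline mean) of the 9 genes with a row of their own, on the 2 baseline arrays (open circles, mean as a line), the IFNa 2 h array (filled circle) and the IFNa 8 h array (square). In every panel both IFNa points lie above both baseline points, by the widest margin for Trim30d and, at 2 h, by the narrowest for Sp100.

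Trim30d and Trim30a had the largest differences of the set. Trim30a, which in mice restrains Toll-like receptor signalling by promoting loss of the adaptors Tab2 and Tab3, had an intensity of 2265 and 2129 on the baseline arrays, 6136 on the 2 h array and 6359 on the 8 h array. The 2 IFNa values were nearly alike, and the baseline values lay close together, with a mean of 2197 ± 95.9 (SD, n = 2). Trim30a rose 2.79-fold at 2 h (log2 difference 1.48, SE 0.20, limma adjusted p = 0.0123) and 2.90-fold at 8 h (1.53, SE 0.20, limma adjusted p = 0.00824). Its neighbour Trim30d had 581 and 507 on the baseline arrays, 1895 on the 2 h array and 2485 on the 8 h array. The 8 h array was the highest and both IFNa arrays stood far above the baseline pair. Trim30d rose 3.49-fold at 2 h (1.80, SE 0.21, limma adjusted p = 0.00535) and 4.58-fold at 8 h (2.20, SE 0.21, limma adjusted p = 0.00167), where it ranked 17th among all rises and Trim30a 35th.

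The regions just upstream of Trim30a and Trim30d, which both rose at 2 h and at 8 h, are shown because they are close copies of each other. Their sequences are from RefSeq, build GRCm38.p6, minus strand, chr7:104465194-104465443 for Trim30a and chr7:104507850-104508099 for Trim30d, and each holds the 250 bases before the annotated start. Capitals mark a match to TTTCNNTTTC (GAAANNGAAA on the other strand), the core of the interferon-stimulated response element (ISRE), a DNA element found in many interferon-induced genes.
Trim30a: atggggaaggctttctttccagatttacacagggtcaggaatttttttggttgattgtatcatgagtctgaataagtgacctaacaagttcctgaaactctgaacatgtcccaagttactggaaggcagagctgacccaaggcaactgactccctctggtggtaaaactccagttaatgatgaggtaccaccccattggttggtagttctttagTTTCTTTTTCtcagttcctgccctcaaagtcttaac
Trim30d: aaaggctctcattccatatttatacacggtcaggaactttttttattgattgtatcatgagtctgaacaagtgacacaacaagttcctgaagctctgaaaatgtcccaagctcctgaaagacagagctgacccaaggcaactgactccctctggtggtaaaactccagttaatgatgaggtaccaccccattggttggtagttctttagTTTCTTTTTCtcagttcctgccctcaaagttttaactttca
An alignment of these stretches paired 245 bases, of which 226 were identical (92.2%), with no gap inside. The match starts 36 bases before the start site of Trim30a and 41 bases before that of Trim30d.

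The ISRE core was looked for on both strands in RefSeq windows of 300 bases, 250 before and 50 after each annotated start. All 10 genes except Trim14 had at least 1 window. The core was found in all 5 TRIM genes with a window and in 0 of the 4 nuclear body genes, against 3.99% of the 27025 genes with windows. Trim21 and Trim26 each held 2 overlapping matches. The short stretches around them are shown to compare the sites, with the matches in capitals.
Trim21 (chr7:102565447-102565476, minus strand): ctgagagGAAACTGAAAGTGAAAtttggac
Trim34a (chr7:104244457-104244486, plus strand): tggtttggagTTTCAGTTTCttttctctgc
Trim26 (chr17:36836974-36837013, plus strand): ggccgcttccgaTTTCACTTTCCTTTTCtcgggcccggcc
The matches of Trim21 and Trim34a begin 13 and 10 bases after the start site, and the first of Trim26 begins 160 bases before it. A variant with a spacer of 3 bases, TTTCNNNTTTC (GAAANNNGAAA on the other strand), was added after the sequences had been read. It was found in Sp100, 47 bases before the start site, and in 1 of the 2 windows of Sp110, 9 bases after the start site of that window. No other gene of the set held it, and 3.17% of all genes with windows did. The start sites of the 2 Sp110 windows lie 6959 and 12040 bases from the start of the annotated gene. The match is in the farther window. Capitals mark the variant below.
Sp100 (chr1:85649929-85649963, plus strand): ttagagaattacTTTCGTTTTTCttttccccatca
Sp110 (chr1:85598782-85598810, minus strand): tgagatcacTTTCATTTTTCttttcttga
The windows of Pml and Daxx held neither motif. A match describes the letters of a window and not binding.

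Trim34a lies in the same stretch of chromosome 7. Its human counterpart TRIM34 restricts lentiviral capsids together with TRIM5. The Trim34a row had 338 and 309 on the baseline arrays, 582 on the 2 h array and 781 on the 8 h array, so both IFNa arrays stood above the baseline pair and the 8 h array was the highest. At 2 h the log2 difference was 0.85 (SE 0.20, limma adjusted p = 0.136), and at 8 h Trim34a rose 2.42-fold (1.27, SE 0.20, limma adjusted p = 0.0187).

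From Trim6 to Trim30d the RefSeq order of chromosome 7 lists 11 protein-coding genes, 10 of them Trim genes, and 6 of these 10 had a row of their own. The end points of this stretch were chosen with the values known. Trim6, at one end, was dim, with 82.6 and 62.9 on the baseline arrays, 65.9 on the 2 h array and 76.8 on the 8 h array. The other 5 measured genes were Trim34a, Trim12a, Trim12c, Trim30a and Trim30d, of which 4 rose at 2 h and all 5 at 8 h, where 1.09% and 0.654% of all tested genes were called higher. Trim12a, related to the capsid-binding restriction factor TRIM5 of primates, had 898 and 945 on the baseline arrays, 2228 on the 2 h array and 2019 on the 8 h array, and rose at 2 h (1.27, SE 0.20, limma adjusted p = 0.0238) and at 8 h (1.13, SE 0.20, limma adjusted p = 0.0258). Trim12c, its close relative, had 366 and 377 on the baseline arrays, 941 on the 2 h array and 917 on the 8 h array. It rose by a log2 difference of 1.34 at 2 h and 1.30 at 8 h (SE 0.20 each, limma adjusted p = 0.0183 and 0.016). Several Trim genes of this stretch are related to one another. How far the probes tell Trim30a, Trim30d and Trim34a from Trim30b, Trim30c and Trim34b was not tested. A row naming Gm38525 and Trim30b together was dim, at 72.2 and 46.9 on the baseline arrays, 50.1 on the 2 h array and 73.0 on the 8 h array.

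**Figure D2:**
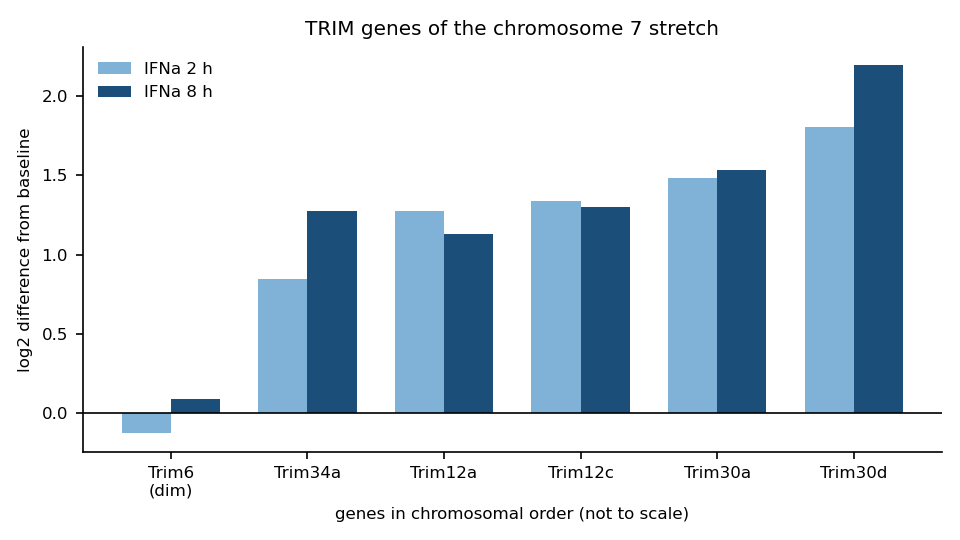
Log2 difference from the baseline mean (vertical axis) at IFNa 2 h (light bars) and IFNa 8 h (dark bars) for the 6 Trim genes of the chromosome 7 stretch with a row of their own, in chromosomal order. The 5 tested genes lie between 0.85 and 1.80 at 2 h and between 1.13 and 2.20 at 8 h, while the dim gene Trim6 lies near 0.

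The other TRIM genes of the set, Trim21, Trim26 and Trim14, had higher values on the 2 h array than on the 8 h array, and none passed the test in any comparison. Over all tested genes the median log2 difference of 8 h minus 2 h was also below 0, at -0.25. Relative to that median Trim21 stood at -0.29, Trim26 at -0.11 and Trim14 at -0.03. Trim21 is a cytosolic antibody receptor and ubiquitin ligase that directs antibody-coated viruses to degradation. It is also on chromosome 7, outside the stretch above and among olfactory receptor genes, which flank that stretch too. It had 779 and 750 on the baseline arrays, 1455 on the 2 h array and 1000 on the 8 h array. The baseline arrays were nearly equal and the 2 h array was the highest. Its log2 difference was 0.93 at 2 h (SE 0.20, limma adjusted p = 0.0889) and 0.39 at 8 h (SE 0.20, limma adjusted p = 0.267).

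Trim26, a ubiquitin ligase encoded beside Trim15, Trim10, Trim40 and Trim31 in the MHC region of chromosome 17, had 257 and 292 on the baseline arrays, 452 on the 2 h array and 351 on the 8 h array. Both IFNa arrays were above the baseline pair, the 8 h array by a small margin of 0.27 on the log2 scale. The log2 difference was 0.72 at 2 h (SE 0.21, limma adjusted p = 0.217) and 0.36 at 8 h (SE 0.21, limma adjusted p = 0.317). Trim14, an adaptor of the mitochondrial antiviral protein Mavs that lacks the RING domain, had 698 and 1080 on the baseline arrays, 1407 on the 2 h array and 1159 on the 8 h array. Its baseline arrays were the farthest apart of the 9 genes (0.63 on the log2 scale), and the 8 h array was above baseline replicate 2 by only 0.10. The log2 difference was 0.70 at 2 h (SE 0.27, limma adjusted p = 0.377) and 0.42 at 8 h (SE 0.27, limma adjusted p = 0.372). Against baseline replicate 2 alone these became 0.38 and 0.10, and against baseline replicate 1 alone 1.01 and 0.73.

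Pml and Sp100 rose at 8 h and Daxx at 2 h, and no difference between these genes was tested. Pml, the scaffold of the nuclear bodies, had 1684 and 1953 on the baseline arrays, 3231 on the 2 h array and 3456 on the 8 h array. Both IFNa arrays stood apart from the baseline pair and close to each other. Its log2 difference was 0.83 at 2 h (SE 0.21, limma adjusted p = 0.155), and it rose 1.91-fold at 8 h (0.93, SE 0.21, limma adjusted p = 0.0492). Against a baseline mean of 10.82 ± 0.15 on the log2 scale (SD, n = 2), the 8 h call lay just under the threshold, and it ended with no filter on dim rows (limma adjusted p = 0.106) or a stricter one (0.0619).

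Daxx, a histone chaperone that works with Atrx and lies beside Zbtb22 and Tapbp on chromosome 17, had 632 and 759 on the baseline arrays, 1547 on the 2 h array and 1294 on the 8 h array. The 2 h array was the highest, and both IFNa arrays were clear of the baseline pair. Daxx rose 2.23-fold at 2 h (1.16, SE 0.22, limma adjusted p = 0.05 when rounded, just under the threshold) and had a log2 difference of 0.90 at 8 h (SE 0.22, limma adjusted p = 0.0566). Both p-values lay close to the threshold, and the 2 h call ended with no filter on dim rows (limma adjusted p = 0.108), a stricter filter (0.0718) or a robust prior (0.0504).

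Sp100, a nuclear body protein that represses viral and other DNA, was higher at 8 h than at 2 h. It had 3978 and 3416 on the baseline arrays, 4409 on the 2 h array and 7389 on the 8 h array. At 2 h it was above baseline replicate 1 by only 0.15 on the log2 scale, and the 8 h array stood apart from the other 3. The log2 difference was 0.26 at 2 h (SE 0.21, limma adjusted p = 0.641), and Sp100 rose 2.00-fold at 8 h (1.00, SE 0.21, limma adjusted p = 0.0412), a call that ended with no filter on dim rows (limma adjusted p = 0.0901) or a stricter one (0.0532). A further row, which names Sp100 together with Gm7592, LOC101055663, LOC671917 and Gm7609, had 1221 and 1044 on the baseline arrays, 1334 on the 2 h array and 2329 on the 8 h array. Its log2 differences of 0.24 and 1.04 were close to those of the row of Sp100 alone.

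Sp110, whose mouse form Ipr1 is known for resistance to intracellular bacteria, lies next to Sp140 and Sp100 on chromosome 1, in a region with several related genes. It appeared in 5 rows, which named between 2 and 9 genes. The row with the fewest, Gm15753 and Sp110, had 1476 and 1523 on the baseline arrays, 2059 on the 2 h array and 2066 on the 8 h array, with both IFNa arrays above both baseline arrays (0.46 at both times). Over the 5 rows the log2 differences ran from -0.00 to 0.46 at 2 h and from 0.08 to 0.55 at 8 h. These rows were not tested, and they do not separate Sp110 from the genes named with it.

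**Figure D3:**
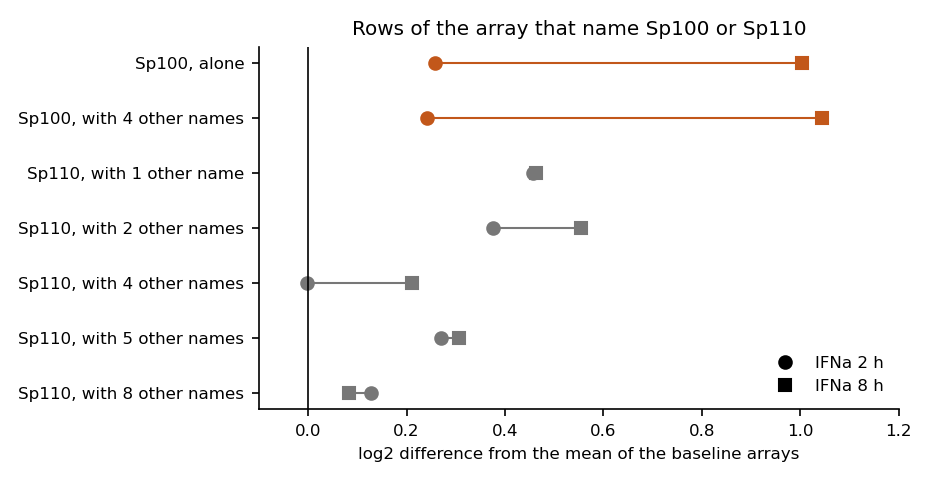
Log2 difference from the baseline mean (horizontal axis) at IFNa 2 h (circle) and IFNa 8 h (square) for each array row that names Sp100 (orange) or Sp110 (grey), labelled by how many other genes the row names. Both Sp100 rows lie near 0.25 at 2 h and near 1.0 at 8 h, and the 5 Sp110 rows stay at or below 0.55.

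The comparison of the 8 h with the 2 h array asks which genes kept changing. None of the 9 genes passed the test (limma), and 2 had an unadjusted p under 0.05, Sp100 and Trim21, against 36.4% of all tested genes. Sp100 was 1.68-fold higher at 8 h (log2 difference 0.75, SE 0.24, limma adjusted p = 0.0721), with a 95% interval of 0.19 to 1.30. Trim21 stood at -0.54 (SE 0.23, limma adjusted p = 0.132). Trim34a (0.42) and Trim30d (0.39) were higher on the 8 h array, Trim26 (-0.37), Trim14 (-0.28) and Daxx (-0.26) lower, and Pml (0.10) and Trim30a (0.052) nearly equal. The sign of Trim14 (0.066) and Daxx (0.068) turned after quantile normalization and that of Pml (-0.081) and Trim30a (-0.13) with centred arrays. Over all tested genes the median of this comparison was -0.25, with 1.46% (156 genes) called higher and 10.8% (1155) called lower, which became 990 and 1316 genes after quantile normalization, when Sp100 and Trim34a also passed. Relative to that median Sp100 stood at 1.00, Trim34a at 0.68, Trim30d at 0.64, Pml at 0.35 and Trim30a at 0.30. Daxx stood at -0.00, Trim14 at -0.03, Trim26 at -0.11 and Trim21 at -0.29.

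**Figure D4:**
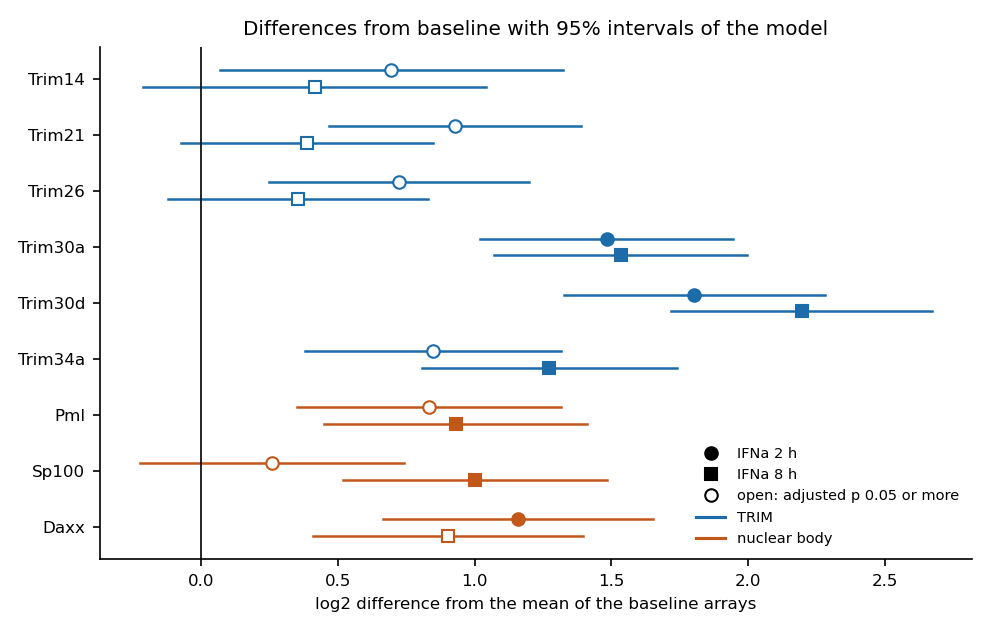
Log2 difference from the baseline mean (horizontal axis) of the 9 genes at IFNa 2 h (circles) and IFNa 8 h (squares), with 95% intervals of the limma model. Filled symbols passed at an adjusted p under 0.05: Trim30a and Trim30d at both times, Daxx at 2 h, and Trim34a, Pml and Sp100 at 8 h.

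Set side by side, the TRIM genes and the nuclear body genes had similar medians. At 2 h the median log2 difference was 0.89 over the 6 TRIM genes and 0.83 over the 3 measured nuclear body genes, or 0.83 and 0.78 relative to the median of all tested genes. At 8 h it was 0.85 and 0.93, or 1.01 and 1.09 relative to that median. The 6 TRIM genes ran from 0.70 to 1.80 at 2 h and from 0.36 to 2.20 at 8 h. The 3 measured nuclear body genes ran from 0.26 to 1.16 at 2 h and from 0.90 to 1.00 at 8 h. A range widens with the number of genes, so these ranges do not compare the spread of the classes. At least 2-fold differences were seen for 2 TRIM genes and 1 nuclear body gene at 2 h and for 3 and 1 at 8 h, where 1.77% and 0.570% of all tested genes were higher by at least 2-fold. Between 8 h and 2 h the medians were -0.11 for the TRIM genes and 0.10 for the nuclear body genes. The first turned to 0.11 after quantile normalization and the second to -0.081 with centred arrays, so neither has a settled direction. No test was made between these classes, since genes are not replicates.

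Among the 53 other genes whose symbol is Trim and a number, 26 were bright enough to be tested and 27 were dim. Of the 26, 3 rose at 2 h, where 1.09% of all tested genes were called higher, and at 8 h 3 rose and 1 fell, where 0.654% were called higher and 3.35% lower. The median of the 26 was 0.10 at 2 h and -0.02 at 8 h, near that of all tested genes. Trim25, the ligase that activates the RNA sensor RIG-I, had 940 and 966 on the baseline arrays, 2733 on the 2 h array and 2158 on the 8 h array, and rose at 2 h (1.52, SE 0.20, limma adjusted p = 0.0105) and at 8 h (1.18, SE 0.20, limma adjusted p = 0.0227). Trim12a and Trim12c were the others that rose. Trim37 had 753 and 786 on the baseline arrays, 788 on the 2 h array and 380 on the 8 h array, and fell by 1.02 on the log2 scale at 8 h (SE 0.20, limma adjusted p = 0.0357). Trim37 was also the 1 other TRIM gene called between 8 h and 2 h (-1.05, limma adjusted p = 0.0305). Of all tested genes 10.8% were called lower and 1.46% higher in that comparison.

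**Figure D5:**
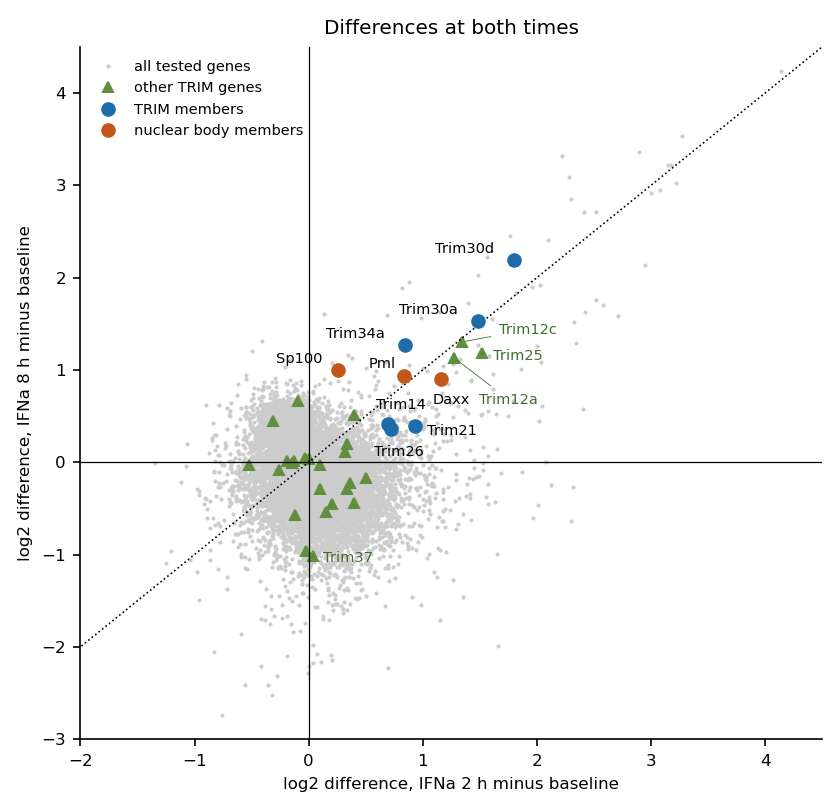
Log2 difference from the baseline mean at IFNa 2 h (horizontal axis) and at IFNa 8 h (vertical axis) for all 10699 tested genes (grey), the 26 other TRIM genes (green) and the TRIM (blue) and nuclear body genes (orange) described here. Both axes share the baseline arrays, and the dotted line marks equal differences. Sp100 lies far to the left of the others for its height, while Trim14, Trim21, Trim26 and Daxx lie below the line.

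Of 22 other nuclear body genes listed, 19 were tested, and only Isg20, an interferon-induced exonuclease that is found in nuclear bodies, rose (1.62, SE 0.21, limma adjusted p = 0.0097 at 2 h, and 0.96, SE 0.21, limma adjusted p = 0.0452 at 8 h). Isg20 had 677 and 776 on the baseline arrays, 2224 on the 2 h array and 1409 on the 8 h array. Of all tested genes 1.09% were called higher at 2 h and 0.654% at 8 h. The list median was 0.17 at 2 h and -0.17 at 8 h. Single genes ran from -0.31 to 1.62 at 2 h and from -0.92 to 0.96 at 8 h. An unadjusted limma p under 0.05 was seen for 2 and 6 of the 19, against 12.1% and 24.6% of all tested genes. Between 8 h and 2 h 3 of the 19 fell, the DNA repair genes Nbn (-1.23, limma adjusted p = 0.0239) and Mre11a (-0.91, limma adjusted p = 0.044) and the histone chaperone gene Asf1a (-1.06, limma adjusted p = 0.0302), where 10.8% of all tested genes were called lower. Atrx, the partner of Daxx, stood at -0.05 and -0.43 (limma adjusted p = 0.937 and 0.225). Sp140, a relative of Sp100, stood at 0.17 and 0.28 (limma adjusted p = 0.823 and 0.547).

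Of 18 genes of the SUMO pathway, which modifies Pml and its partners, 15 were tested. None passed the test at 2 h or 8 h (limma), and 1 and 2 had an unadjusted p under 0.05, against 12.1% and 24.6% of all tested genes. The largest differences were those of the SUMO proteases Senp7 (-0.82, SE 0.22, limma adjusted p = 0.187) at 2 h and Senp2 (-0.64, limma adjusted p = 0.115) at 8 h, followed by the activating enzyme subunit Sae1 (0.46) at 2 h and the modifier Sumo3 (-0.61) at 8 h. On the 8 h array 2 of the 15 were lower than on the 2 h array, Senp2 (-1.07, limma adjusted p = 0.0297) and Sumo3 (-0.94, limma adjusted p = 0.0385), where 10.8% of all tested genes were called lower. Of 16 listed partners and substrates of TRIM proteins, 15 were tested. Ddx58, which encodes RIG-I, the substrate of Trim25, had 1270 and 1253 on the baseline arrays, 3167 on the 2 h array and 2744 on the 8 h array. Ddx58 rose at 2 h (1.33, SE 0.20, limma adjusted p = 0.0183) and at 8 h (1.12, SE 0.20, limma adjusted p = 0.0258). The transcription factor Irf8 had 3427 and 2950 on the baseline arrays, 2707 on the 2 h array and 986 on the 8 h array, and fell by 1.69 at 8 h (SE 0.21, limma adjusted p = 0.00661). Set against the 2 h array, 2 of the 15 fell at 8 h, where 10.8% of all tested genes were called lower. They were Irf8 (-1.46, limma adjusted p = 0.0152) and Traf6, a signalling ubiquitin ligase (-1.37, limma adjusted p = 0.0239). Mavs, the partner of Trim14, stood at 0.01 and -0.33, and Tab2 and Tab3, the targets of Trim30a, at 0.16 and 0.58 at 2 h and at -0.22 and -0.08 at 8 h. None of these 3 genes passed.

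The tested gene most like each of these genes was taken as the one nearest in its differences at 2 h and 8 h from the shared baseline, among 10303 genes outside the set whose symbols are not of the predicted Gm or Rik kind. Pml was nearest to Oasl1 (distance 0.049), Daxx to the RNA-editing enzyme Adar (0.085), Sp100 to St8sia6 (0.087) and Trim30a to Sdc3 (0.13). Trim30d was nearest to the oligoadenylate synthetase Oas2 (0.24) and Trim34a to Ctsw (0.22), and in each case that gene was the only one within 0.25. Trim14 (nearest Tor1aip2), Trim21 (Ddx24) and Trim26 (Usp38) lay in a denser region, with 82, 62 and 98 genes within 0.25. The median of the TRIM genes had Gbp9, BC147527 and Mitd1 as its nearest genes, and that of the nuclear body genes had Oasl1, BC147527 and Gbp9.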

How the data were processed

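RNA of 4 samples was hybridised to 1 array each. The deposited values are linear intensity, not logged. The tools named in the submitters' processing notes are RMA and Affymetrix Power Tools, without a version, and no build is stated for the array. Log2 of the deposited intensity was taken with no pseudocount.

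Of 24922 rows, 21425 had 1 gene symbol in the platform annotation, 1399 several and 2098 none listed. Only the first kind was tested, with the brightest row of a gene (by mean log2). A gene was kept if any of the 4 arrays showed it above the median over its rows (10699 of 19752). Limma 3.58.1 in R 4.3.3 fitted a mean per group, with empirical Bayes moderation (residual degrees of freedom 1, prior degrees of freedom 7.46), two-sided, with Benjamini-Hochberg adjustment over all tested genes and calls at an adjusted p under 0.05. Standard errors and intervals are those of this model. Motifs were searched with Python 3.11.15, and the sequences were aligned with Biopython 1.88. RefSeq tables of GRCm38.p6 supplied names, gene order and sequences. The scripts were tested on simulated data.

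The members and lists were chosen with earlier results of these data known. All members were named, with up to 4 called genes of each further list per comparison with baseline (2 by size if none passed) and the nearest gene of each member; Atrx, Sp140, Mavs, Tab2, Tab3 and Trim6 were added with their values known, as partners, relatives or neighbours of members, as were the genes of these lists called between 8 h and 2 h. Alternatives were quantile normalization, centring, no filter or a stricter one (60th percentile), a robust prior or one with an intensity trend, the mean of a gene's rows, other thresholds, leaving out a baseline array, and Pml counted among the TRIM genes.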

Additional observations from a re-analysis of the deposited data

How the results depend on the processing

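No paired analysis was possible because the groups share only replicate number 1. Trim30a, Trim30d and, at 8 h, Trim34a were called under each of the 9 tested alternatives, and no difference from baseline changed sign under any alternative. Between 8 h and 2 h the uncalled differences of Trim14, Trim30a, Pml and Daxx did. The count of 3 genes called at 2 h became 6 after quantile normalization and 6 with centred arrays, where Trim21, Trim34a and Pml were added. The adjusted p of Daxx at 2 h ran from 0.000991 to 0.108, and its call ended with no filter on dim rows, with the filter at the 60th percentile and with a robust prior. The count of 5 at 8 h became 8 after quantile normalization and 3 with no filter or the stricter one, where Pml (adjusted p = 0.106 and 0.0619) and Sp100 (0.0901 and 0.0532) were lost; Pml, at 1.91-fold, also missed a 2-fold minimum. Between 8 h and 2 h the count of 0 became 2 after quantile normalization, 1 with an intensity trend and 1 at an adjusted p under 0.1, and over both times the count of 4 became 9 after quantile normalization and 2 with no filter. Quantile normalization raised the prior degrees of freedom to 34.8. Over all tested genes 332 were then called higher at 2 h and 663 at 8 h, against 117 and 70. With centred arrays 291 were called higher at 2 h. At 8 h, 42 of 19752 were called higher with no filter and 52 of 8607 with the stricter one. Between 8 h and 2 h, 990 were called higher after quantile normalization and 216 with an intensity trend, against 156. Over both times, 215 were called higher after quantile normalization and 50 of 19752 with no filter, against 69. Over single genes and comparisons, the tested alternatives added a call 23 times and ended one 11 times.

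The TRIM median at 2 h was 0.76 after quantile normalization and 0.99 with centred arrays, and 0.93 to 0.96 without 1 baseline array. At 8 h it was 1.08, 0.77, 0.88 to 0.97, and 0.93 with Pml counted among the TRIM genes. Between 8 h and 2 h it was 0.11, -0.29 and, with Pml, 0.052, and the nuclear body median was 0.31 and -0.081. The causes were not tested. Leaving out 1 baseline array leaves no residual degrees of freedom and so no test.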

Other observations

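Rows that neighbour the Sp100 and Sp110 family separated the baseline arrays. The 4 rows that name Csprs, each with Gm7592, LOC100041903, Gm2666 and Gm7609, were 4.25 to 5.24 times higher on baseline replicate 1 than on baseline replicate 2. One of them had 485 and 92.4 on the baseline arrays, 136 on the 2 h array and 216 on the 8 h array, so that baseline replicate 1 alone stood apart. Gm7592 and Gm7609 are also named in the further Sp100 row, where baseline replicate 1 was 1.17 times baseline replicate 2. These rows were chosen after their values were seen and were not tested.

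Rows shared by Trim5 and the Trim12 genes, left out of the tests because they name several genes, followed the chromosome 7 genes. The row naming Trim5, Trim12c and Trim12a had 1017 and 1026 on the baseline arrays, 1771 on the 2 h array and 1845 on the 8 h array, and the row naming Trim5 and Trim12c had 1228 and 1072 on the baseline arrays, 1842 on the 2 h array and 2269 on the 8 h array. Both IFNa arrays were above both baseline arrays in each. Trim30e-ps1, a dim row chosen after its values were seen, had 34.1 and 39.7 on the baseline arrays, 56.9 on the 2 h array and 85.0 on the 8 h array.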
